A study of Homo sapiens with 18 samples.

Results

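The linker histone isotypes H1.2 and H1.5 were compared in HL-60/S4 cells, an established human myeloid leukemia line, by the regions each antibody enriched in xxChIP-seq. The unit was the 100-kb window: 28422 of the 30376 windows on chromosomes 1 to 22 and X held at least 50% known sequence and were used. In each window the share of known bases covered by the merged H1.2 peaks and by the merged H1.5 peaks was taken, and the difference was H1.2 minus H1.5 in percentage points. All groups were undifferentiated cells with no treatment. The study holds 18 samples: 3 replicates for either antibody under both protocols, xxChIP and xChIP, and 6 Input samples that were not used here. In xxChIP the antibody was bound to fixed, permeabilized cells and fixed in place before sonication, whereas in xChIP the chromatin was sonicated first. Both antibodies were rabbit polyclonals raised against the N-terminal part of the protein, and in xxChIP the stated volumes and concentrations give equal masses of each.

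H1 histones bind the nucleosome where DNA enters and exits and hold neighbouring nucleosomes together, and they are abundant in compact, gene-poor chromatin. H1.2 and H1.5 are somatic isotypes that share a globular domain and differ mainly in their tails. An antibody bound in situ reads only the epitopes that chromatin structure leaves exposed, so a peak in xxChIP is exposed epitope and is not a direct measure of the amount of H1. No value in the lists checks which isotype an antibody bound.

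Each list is the merge of 3 replicates and holds positions only. No replicate spread, read depth or counting interval could be given, and no p-value was computed. Every value below describes this pair of lists, and a difference in coverage is not a difference in signal height. Across the known sequence (2836 Mb), the H1.2 list had 142997 peaks covering 20.2% of the bases and the H1.5 list had 138333 peaks covering 17.2%. The median peak was 2168 bp for H1.2 and 2033 bp for H1.5, while peaks of 20 kb or more numbered 2920 for H1.2 and 1618 for H1.5.

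In most of the leading windows 1 antibody gave a longer peak than the other. To show what such DNA looks like, 200 bases were taken from the longest segment covered by only 1 list in each of the 3 leading windows per direction that lie over 2 Mb from an assembly gap of 1 Mb or more. The stretch shown is the one outside exons whose GC content was nearest to that of its segment. All are hg19, plus strand, with CG dinucleotides in capitals. The H1.2-only stretches were chr4:65035553-65035752 and chr2:82308130-82308329, both intergenic, and chr10:66017698-66017897, in an intron of a long non-coding gene.
H1.2 segment, chromosome 4: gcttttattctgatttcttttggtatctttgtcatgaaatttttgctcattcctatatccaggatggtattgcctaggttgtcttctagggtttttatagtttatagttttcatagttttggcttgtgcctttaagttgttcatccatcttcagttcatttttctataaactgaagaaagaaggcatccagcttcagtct
H1.2 segment, chromosome 2: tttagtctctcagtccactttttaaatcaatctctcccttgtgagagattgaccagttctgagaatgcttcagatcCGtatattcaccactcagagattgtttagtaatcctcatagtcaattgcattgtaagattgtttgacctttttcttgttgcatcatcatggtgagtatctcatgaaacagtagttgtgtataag
H1.2 segment, chromosome 10: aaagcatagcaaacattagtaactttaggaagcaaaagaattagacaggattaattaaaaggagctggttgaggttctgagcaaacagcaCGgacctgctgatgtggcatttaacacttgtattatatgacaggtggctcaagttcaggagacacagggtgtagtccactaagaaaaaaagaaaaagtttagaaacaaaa
The H1.5-only stretches were chr19:20328393-20328592, in an intron of a long non-coding gene downstream of ZNF486, and chr20:56126426-56126625 and chr7:64928652-64928851, both intergenic.
H1.5 segment, chromosome 19: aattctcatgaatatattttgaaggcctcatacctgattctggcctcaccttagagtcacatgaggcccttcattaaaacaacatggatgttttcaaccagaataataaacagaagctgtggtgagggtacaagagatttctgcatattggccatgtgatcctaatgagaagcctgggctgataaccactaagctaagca
H1.5 segment, chromosome 20: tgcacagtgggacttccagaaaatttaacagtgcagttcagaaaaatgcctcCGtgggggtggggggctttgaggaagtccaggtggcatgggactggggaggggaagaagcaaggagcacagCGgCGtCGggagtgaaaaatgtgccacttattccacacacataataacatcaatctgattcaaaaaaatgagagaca
H1.5 segment, chromosome 7: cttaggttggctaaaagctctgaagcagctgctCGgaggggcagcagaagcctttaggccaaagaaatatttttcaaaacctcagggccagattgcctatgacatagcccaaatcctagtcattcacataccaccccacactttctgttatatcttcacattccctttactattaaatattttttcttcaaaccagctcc

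The 3 H1.2-only segments were 24765, 24367 and 23808 bp long, with GC contents of 34.1%, 36.4% and 37.6% and 4.85, 5.01 and 5.33 CG per kb, on chromosomes 4, 2 and 10. The 3 H1.5-only segments were 23675, 24619 and 27191 bp long, with GC contents of 41.0%, 48.8% and 42.4% and 8.28, 17.6 and 8.64 CG per kb, on chromosomes 19, 20 and 7. All 3 H1.5-only segments were thus richer in GC than the 3 H1.2-only segments. This order did not extend to all other leading windows away from gaps. As whole windows, the H1.5-higher ones on chromosomes 6, 3, 2 and 13 had GC contents of 34.6%, 34.6%, 35.1% and 33.3%. The one on chromosome 15 had 41.3%. The windows of the H1.2-only segments, on chromosomes 4, 2 and 10, had 35.8%, 35.8% and 36.7%. Over 14178079 stretches of 200 bases in the genome, 71.6% hold at least 1 CG.

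Over all covered bases, H1.5-only bases were richer in GC than H1.2-only bases by a smaller margin than in these segments. Bases in the H1.2 list only (11.4% of the known sequence) had a GC content of 39.4%, those in the H1.5 list only (8.36%) had 40.7%, those in both (8.81%) had 38.3%, and those in neither (71.5%) had 41.5%. CG dinucleotides per kb were 8.27 in H1.2-only bases, 8.87 in H1.5-only bases, 7.16 in bases of both lists and 10.6 in bases of neither. Both isotypes were mapped to DNA poorer in GC and CG than the rest of the genome, and the bases they shared were the poorest. The letters ACACAC, counted on both strands, occurred 1.41 times per kb in H1.2-only bases, 1.68 in H1.5-only bases, 1.80 in shared bases and 1.10 in bases of neither, and 11.3% of all 200-base stretches hold them. The letters TATATT, counted on both strands, occurred 1.5 times per kb in H1.2-only bases, 1.29 in H1.5-only bases, 1.49 in shared bases and 1.33 in bases of neither, and 19.7% of all 200-base stretches hold them. Both motifs were picked after short words had been compared between the classes, so these rates are descriptions.

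Over the 28422 windows, coverage by H1.2 averaged 20.2% ± 14.7 (SD over windows) and by H1.5 17.2% ± 12.8, with medians of 17.0% and 14.6%. The difference averaged 2.99 points ± 10.6 (SD), with a median of 2.24, quartiles of -2.93 and 8.23, and extremes of -57.5 and 100. H1.2 covered more than H1.5 in 17464 windows (61.4%) and less in 10816 (38.1%), and 142 were equal. A window at 20 points or more is called H1.2-higher below, and one at -20 points or less H1.5-higher. There were 1691 H1.2-higher windows (5.95% of all windows) and 445 H1.5-higher windows (1.57%), so 79.2% of the called windows favoured H1.2. At 30 points the counts were 496 and 80, at 40 points 145 and 14, and at 50 points 44 and 3.

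The excess of H1.2-higher windows moved with the overall coverage of the lists. With each list scaled to the mean coverage of both, 925 windows were H1.2-higher and 927 H1.5-higher, so that 49.9% of the called windows favoured H1.2, and the median difference fell to 0.01 points. All 925 H1.2-higher windows after scaling were among the 1691, and all 445 H1.5-higher windows were among the 927. Without peaks of 20 kb or more the counts were 811 and 693.

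**Figure D1:**
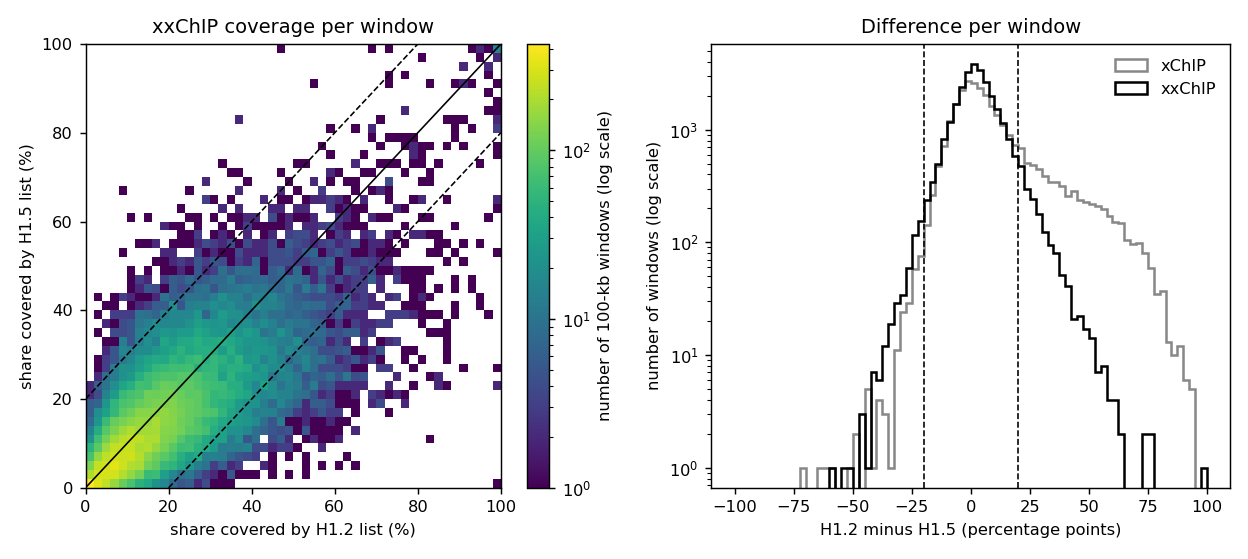
Left, the share of each 100-kb window covered by the H1.2 list (x axis, %) and the H1.5 list (y axis, %) in xxChIP, with color for the number of windows on a log scale, a solid line at equality and dashed lines at 20 points. Right, the number of windows (log scale) by H1.2 minus H1.5 in percentage points for xxChIP (black) and xChIP (gray). The 1691 windows right of the dashed line on the right in xxChIP outnumber the 445 left of the other, and the xChIP curve has a longer arm toward H1.2.

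In the called windows the lists differed in peak length more than in peak number. The windows were called on coverage, so longer peaks in the higher list follow in part from the choice. In H1.2-higher windows the median was 6 peaks for H1.2 and 6 for H1.5, but the longest H1.2 peak had a median of 25936 bp and the longest H1.5 peak 7655 bp. In H1.5-higher windows the median was 5 peaks for H1.2 and 6 for H1.5, with longest peaks of 6555 bp and 19788 bp. Windows between the thresholds had a median of 5 peaks in each list, with longest peaks of 6105 bp for H1.2 and 5328.5 bp for H1.5. The higher list had a peak of 20 kb or more in 65.9% of H1.2-higher windows and 49.2% of H1.5-higher windows, against 9.34% and 10.1% for the lower list. The lower list mostly lay inside the higher list, since 80.4% of its bases in H1.2-higher windows and 74.6% in H1.5-higher windows were also in the higher one. Over all known sequence, 8.81% of bases were in both lists, beside 20.2% in the H1.2 list and 17.2% in the H1.5 list. Overlap rises with the coverage of the higher list, by which these windows were chosen. The left and right 50 kb went the same way in 1555 H1.2-higher windows (92.0%) and 389 H1.5-higher windows (87.4%). The windows were called on the same values, so this follows largely from the choice and is no separate support.

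H1.2 covered a median of 46.7% of H1.2-higher windows (quartiles 37.4% and 57.4%), where H1.5 covered 19.1%. H1.5 covered a median of 41.1% of H1.5-higher windows (quartiles 35.6% and 50.0%), where H1.2 covered 16.0%. Over all windows the medians were 17.0% for H1.2 and 14.6% for H1.5. Both kinds of window lay more often outside genes: 52.1% of H1.2-higher and 53.5% of H1.5-higher windows held no base of a protein-coding gene, against 34.0% of all windows. Both were also poorer in GC, with medians of 37.1% in H1.2-higher and 38.5% in H1.5-higher windows against 39.8% in all.

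The differences formed few broad domains. Of the H1.2-higher windows, 1268 stood alone, 156 pairs were adjacent, and 35 runs of 3 or more held 111 windows. Of the H1.5-higher windows, 411 stood alone, 14 pairs were adjacent and 2 runs of 3 held 6 windows. The correlation of the difference between 28316 pairs of neighbouring windows was 0.11, and neighbours share peaks that cross their border.

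The widest H1.2-higher run was chr2:104500001-105000000, 5 windows with no protein-coding gene, 469744 bp from POU3F3, a neural transcription factor. H1.2 covered 66.5% of it with 22 peaks, 6 of them 20 kb or more, and H1.5 covered 29.3% with 30 peaks, none of that length. Further gene-free runs of 4 windows lay at chr2:155800001-156200000, 85134 bp from KCNJ3, a potassium channel gene, and at chr4:30000001-30400000, 321990 bp from PCDH7, a protocadherin gene. H1.2 covered 62.6% and 62.8% of these runs, and H1.5 covered 27.6% and 32.2%. The run at chr4:143100001-143500000 lay wholly inside INPP4B, a phosphoinositide phosphatase gene, with 43.7% for H1.2 and 19.5% for H1.5. The run at chr21:10800001-11200000, which holds the testis-expressed phosphatase gene TPTE, had 76.6% and 25.6%, and it adjoins a large assembly gap.

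The 2 H1.5-higher runs were chr20:23700001-24000000 and chr2:22200001-22500000. The run on chromosome 20 holds part of the cystatin cluster, genes of secreted inhibitors of cysteine proteases, and H1.2 covered 19.2% of it and H1.5 48.1%. Within it, the body of CST1 was covered 0% by H1.2 and 96.8% by H1.5, that of CST2 0% and 64.0%, and that of CST5 0% and 74.5%, whereas GGTLC1, a gamma-glutamyltransferase-like gene, held no peak base of either. In xChIP the CST1 body was covered 48.7% by H1.2 and 0% by H1.5, the opposite way, that of CST2 0% and 31.0%, the same way, and that of CST5 0% by both. The run on chromosome 2 is 832760 bp from TDRD15, with 19.8% for H1.2 and 42.3% for H1.5.

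The largest single difference was at chr12:38300001-38400000, where 1 H1.2 peak of 122281 bp covered the whole window and no H1.5 peak base lay in it. In xChIP, H1.2 covered 79.2% of this window and H1.5 7.92%, so the direction was shared. It lies 443306 bp from the centromeric gap, and 6 of the 10 leading H1.2-higher windows lay within 2 Mb of an assembly gap of 1 Mb or more, on chromosomes 12, 21, 3 and 22. Among the 839 windows that near such a gap, 85 (10.1%) were H1.2-higher and 26 (3.10%) H1.5-higher, against 5.95% and 1.57% of all windows. The part of repeated sequence in these values was not tested. Without the windows near gaps, 1606 H1.2-higher and 419 H1.5-higher windows remained.

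Away from gaps, the leading H1.2-higher window was chr4:65000001-65100000, 40974 bp from TECRL, a reductase gene expressed in heart muscle. H1.2 covered 87.1% of it with a longest peak of 83829 bp, and H1.5 covered 22.4% with a longest peak of 7715 bp. The windows chr2:82300001-82400000 and chr10:66000001-66100000 followed, with 90.1% against 26.2% and 85.0% against 23.6%. The window chr4:122300001-122400000, at the start of QRFPR, a neuropeptide receptor gene, had 85.3% against 24.6%. In xChIP these 4 windows were covered 0% to 15.4% by H1.2 and 1.65% to 12.4% by H1.5, so their long H1.2 peaks were seen in xxChIP and not in xChIP.

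The leading H1.5-higher window was chr19:20300001-20400000, in a cluster of zinc finger genes, with ZNF486 at its edge. H1.2 covered 8.98% of it with a longest peak of 2685 bp, and H1.5 covered 66.5% with a longest peak of 23688 bp. In the window chr11:51200001-51300000, 294205 bp from the centromeric gap, H1.2 covered 46.1% and H1.5 100%. The window chr7:64900001-65000000, 33951 bp from ZNF92, had 36.5% for H1.2, with a longest peak of 21048 bp, and 83.3% for H1.5. Moved by 50 kb it differed by -1.84 points. In the remaining 6 of the 10 leading H1.5-higher windows, apart from the one on chromosome 20 described next, H1.2 ranged from 9.74% to 36.6% and H1.5 from 53.8% to 82.9%, and none of the 6 held a base of a protein-coding gene.

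The leading H1.5-higher window with several genes was chr20:56100001-56200000, covered 10.9% by H1.2 and 61.2% by H1.5. Moved by 50 kb it differed by -19.5 points. It holds PCK1, which encodes a key enzyme of gluconeogenesis, and parts of ZBP1, a nucleic acid sensor gene, and CTCFL, the germ-line paralog of CTCF. The body of PCK1 (chr20:56136136-56143177, plus strand) was covered 0% by H1.2 and 100% by H1.5, and that of ZBP1 7.88% and 62.9%. CTCFL lay mostly outside the window, and its body differed by 13.9 points toward H1.2. In xChIP, PCK1 was covered 17.1% by H1.2 and 0% by H1.5, and ZBP1 68.9% and 0%, so at both genes the xChIP lists went the other way.

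**Figure D2:**
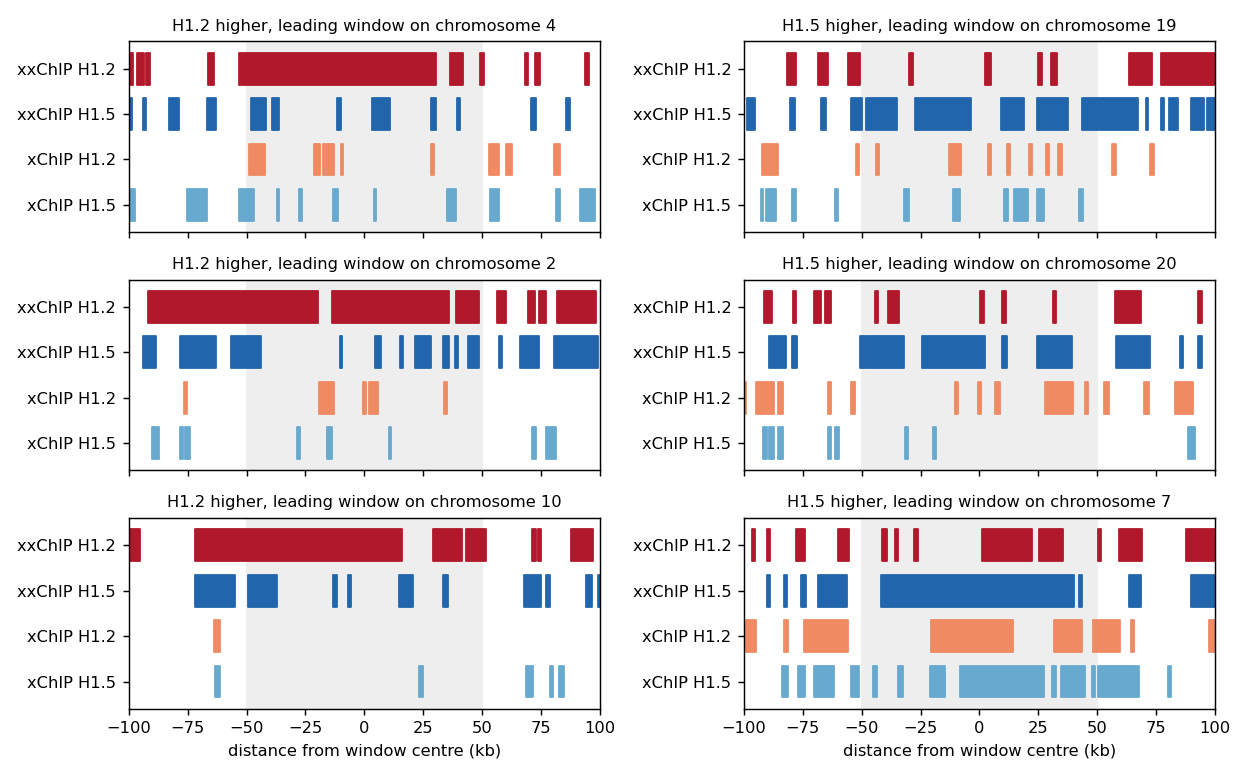
Peaks of the 4 lists (rows) around the 3 leading windows per direction that lie over 2 Mb from a large gap, by distance from the window centre in kb. The gray band is the 100-kb window. The windows on chromosomes 4, 2 and 10 show long xxChIP H1.2 peaks over scattered H1.5 peaks, and the windows on chromosomes 19 and 20 show the reverse, with an H1.2 peak of 21048 bp beside the H1.5 peak of 82059 bp on chromosome 7, while xChIP peaks are short except on chromosome 7.

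Promoters under a peak of 1 list only were rare. Of 20094 stretches of 250 bases upstream of protein-coding genes, 512 (2.55%) held bases of the H1.2 list only, 510 (2.54%) of the H1.5 list only, 297 (1.48%) of both and 18775 (93.4%) of neither. The median number of CG was 3.5 in H1.2-only, 4 in H1.5-only, 3 in both and 15 in neither, so peaks of both isotypes lay at CG-poor promoters alike, and 96.3% of all promoters held at least 1 CG. Of the promoters of leading genes and of genes in the leading windows that were wholly in 1 list and free of the other, 2 that overlap no exon are shown to set them beside these medians. They are CTCFL (chr20:56100709-56100958, minus strand), in the H1.5 list, and ZNF845 (chr19:53836752-53837001, plus strand), in the H1.2 list. CG is in capitals, from hg19, in the direction of the gene.
CTCFL promoter: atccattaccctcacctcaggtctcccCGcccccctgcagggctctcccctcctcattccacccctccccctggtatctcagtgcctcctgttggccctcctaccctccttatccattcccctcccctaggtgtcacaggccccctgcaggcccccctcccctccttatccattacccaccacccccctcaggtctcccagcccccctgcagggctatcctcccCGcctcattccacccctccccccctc
ZNF845 promoter: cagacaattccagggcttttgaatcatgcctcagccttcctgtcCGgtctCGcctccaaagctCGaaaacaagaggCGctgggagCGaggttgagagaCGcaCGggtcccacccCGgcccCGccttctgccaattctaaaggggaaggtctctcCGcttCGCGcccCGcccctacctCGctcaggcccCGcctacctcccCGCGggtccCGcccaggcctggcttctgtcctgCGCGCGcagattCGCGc
The CTCFL promoter held 2 CG at a GC content of 66.4%, and the ZNF845 promoter 23 CG at 66.0%. The ZNF845 promoter thus stood above the median of 14 CG over all promoters, unlike most promoters under an H1.2 peak. Also wholly in the H1.5 list but not shown, the PCK1 promoter held 5 CG at a GC content of 52.0%. The ZNF829 promoter, in the H1.5 list and overlapping an exon, held 26 CG at 65.6%. The promoters in the H1.5 list thus ran from 2 to 26 CG, and ZNF845 alone stood for the H1.2 list. So few promoters cannot show whether the number of CG follows the isotype.

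Gene bodies were compared for the 11628 protein-coding genes of 20 kb or more, whose mean coverage was 13.2% for H1.2 and 10.8% for H1.5. The difference averaged 2.45 points ± 9.66 (SD over genes), and 816 of these genes held no peak base of either list. H1.2 was higher by 30 points or more in 143 genes (1.23%) and H1.5 in 60 (0.516%). With each list scaled to the mean of both the counts were 85 and 100, so the share of called genes that favoured H1.2 went from 70.4% to 45.9%. With 10 kb added on each side of the gene they were 68 and 24, and 3 of the 24 genes named next fell below 30 points: SLC41A1 (27.9), OLFML1 (-29.8) and RECQL (-22.8).

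The genes with the largest differences toward H1.2 were often members of copy-rich families. ANKRD20A1 (chr9:67926761-67969840), an ankyrin repeat gene of the pericentromere, was covered 93.4% by H1.2 and 3.73% by H1.5. ZNF93 (chr19:20011722-20074273), a KRAB zinc finger repressor of LINE-1 elements, was covered 97.7% and 19.4%, by a single H1.2 peak of 62960 bp. ZNF736, another zinc finger gene, had 82.7% and 11.6%, and PSG5, of the pregnancy-specific glycoproteins of the placenta, had 100% and 30.2%. NBPF4, of the neuroblastoma breakpoint family, had 73.5% and 5.50%. In each of these 5 genes 1 long H1.2 peak gave the coverage. Copies of such families share sequence, and since only uniquely mappable reads were kept, peaks in near-identical copies are uncertain.

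The other 7 of the 12 leading genes included further zinc finger and ankyrin repeat genes. BTG4, a regulator of maternal RNA decay in the oocyte, had 75.5% for H1.2 and 9.51% for H1.5, and SLC41A1, a magnesium transporter gene, had 67.6% and 4.38%. COMMD9, of endosomal sorting, had 58.5% and 0%, and TCEAL3, an elongation factor-like gene on the X chromosome, had 57.0% and 0%. The zinc finger genes ZNF845 (68.9% and 4.96%) and ZNF813 (59.3% and 3.63%) and the ankyrin repeat gene ANKRD18A (78.4% and 24.0%) completed the 12. The next gene by difference was CCDC152, at 53.1 points, just below ANKRD18A at 54.5 points.

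Toward H1.5 the leading gene was CEACAM5 (chr19:42212504-42234353), the carcinoembryonic antigen of epithelia, with 22.8% for H1.2 and 96.0% for H1.5. The same 28900-bp H1.5 peak gave the value of the overlapping readthrough gene ENSG00000267881, with 12.7% and 60.1%, so the pair is 1 observation. ZNF829 had 28.6% and 95.1%, and the zinc finger genes ZNF133 (15.9% and 66.1%) and ZNF85 (5.89% and 50.9%) were also among the 12. ETNK2, an ethanolamine kinase, had 7.76% and 64.8%, SLC6A15, a neuronal amino acid transporter, had 11.2% and 62.4%, and WFDC8, a protease inhibitor gene of the epididymis, had 19.1% and 68.5%. PODN, a matrix proteoglycan gene, had 8.78% and 58.9%, and RECQL, a DNA helicase gene, had 5.51% and 51.7%. Neither CFHR3, a complement factor H relative with close copies, nor OLFML1, an olfactomedin-like gene, held any H1.2 peak base, and H1.5 covered 50.5% and 46.4% of them. The next gene was NDUFB6, at -44.3 points, after ZNF85 at -45.1 points.

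**Figure D3:**
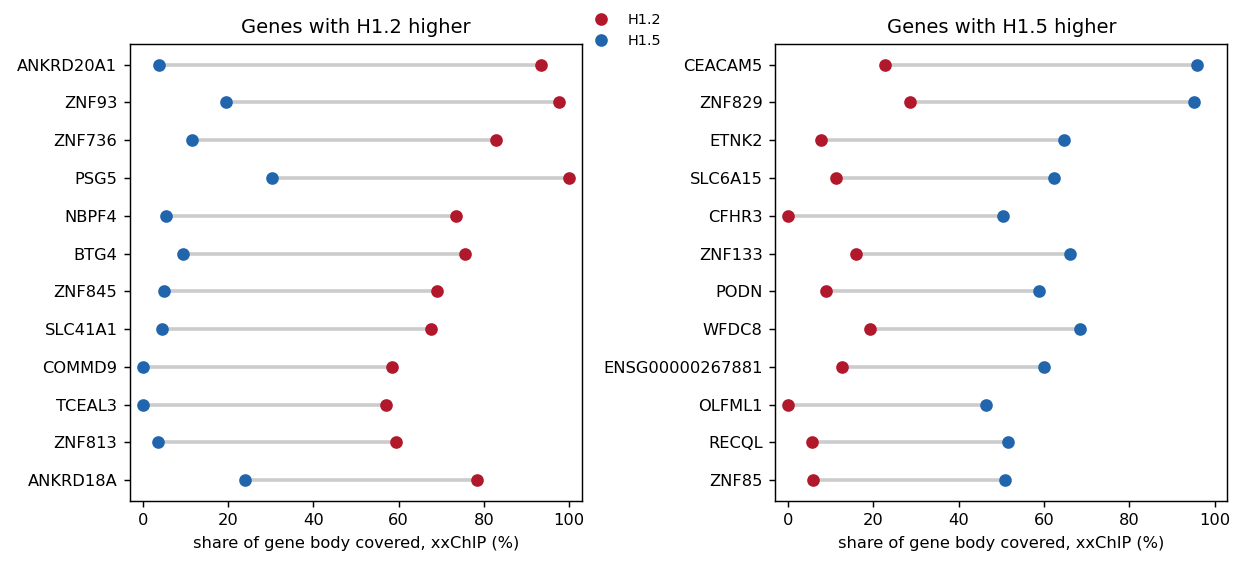
Share of the gene body covered in xxChIP (x axis, %) by the H1.2 list (red) and the H1.5 list (blue) for the 12 protein-coding genes of 20 kb or more with the largest difference each way, joined by a gray line. The H1.2 points on the left run from 57.0% to 100%, and H1.5 points on the right from 46.4% to 96.0%, with the other isotype at 0% to 30.2% in every gene shown.

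Zinc finger genes stood at both ends. Among the 328 genes of 20 kb or more whose symbol begins with ZNF, 20 (6.10%) were at 30 points or more and 14 (4.27%) at -30 points or less, beside 1.23% and 0.516% of all 11628 genes. Chromosome 19, which carries large KRAB zinc finger clusters, held 16 of the 20 and 12 of the 14. The 155 ZNF genes on that chromosome had a median coverage of 22.4% by H1.2 and 21.1% by H1.5, and their differences had an SD of 21.5 points, against 9.66 over all genes. These 155 genes therefore had nearly equal medians for the isotypes and a wide scatter. ZNF93 and ZNF85, picked from its 2 sides and not adjacent, differed by 78.2 and -45.1 points. Their coverage was above the means over all 11628 genes, 13.2% for H1.2 and 10.8% for H1.5. Calls were rarer in longer genes: among all genes of 50 kb or more, 0.516% and 0.118% were past 30 points. The part of coverage and gene length in the ZNF shares and scatter was not tested. Neighbouring genes share peaks and sequence, so they are not independent.

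Fixed lists of genes were read with 10 kb on each side, where 724 of 20098 protein-coding genes (3.6%) were at 20 points or more and 398 (1.98%) at -20 points or less, with a median of 0.93 points. Olfactory receptor genes, which detect odorants and are silent in most cells, showed the pattern of the zinc finger genes: of 415, 68 (16.4%) favoured H1.2 and 48 (11.6%) H1.5, with a median of 1.01 points. OR8G5 had 100% for H1.2 and 31.2% for H1.5, and OR8B4 71.3% and 6.64%. At the other end the near copies OR4N4 and OR4N4C had 40.8% and 41.7% for H1.2 and 100% for H1.5. Keratin and keratin-associated genes, the structural genes of epithelia and hair, were also split, with 23 of 149 (15.4%) toward H1.2 and 25 (16.8%) toward H1.5 and a median of 1.18 points. KRTAP13-3 had 80.0% for H1.2 and 6.81% for H1.5, and KRTAP4-3, at the other end, differed by -60.1 points. Of 515 zinc finger genes in the wider list, 41 (7.96%) favoured H1.2 and 24 (4.66%) H1.5, with a median of 1.98 points. In these clustered families the flanks of neighbours overlap, and with the gene body alone the olfactory counts were 40 and 51, so the balance there turned to H1.5. Median coverage was 22.2% for H1.2 and 20.0% for H1.5 in olfactory receptor genes and 20.2% and 20.5% in keratin genes. Over all protein-coding genes it was 8.64% and 6.81%. Calls were also more frequent in shorter windows, and the part of coverage and gene length in these shares was not tested.

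Protocadherin cluster genes, cell adhesion genes that give neurons their identity, leaned to H1.2 as a group with single members far to H1.5. The difference was above 0 in 44 of 53 genes, with a median of 7.45 points, beside 11021 of all 20098 genes above 0. Genes of these clusters lie close together, so their spans with flanks overlap and count the same peaks more than once. The 53 genes are therefore not independent, and the count of 44 describes a few shared regions rather than separate genes. PCDHB4 was the 1 gene past 20 points toward H1.2, with 61.2% and 24.7%. The 5 genes past 20 points toward H1.5 were all of the beta cluster: PCDHB5 (31.6% and 56.1%), PCDHB6 (0% and 43.0%), PCDHB7 (0% and 38.3%), PCDHB8 (0% and 29.9%) and PCDHB16 (0% and 28.6%). PCDHB4 and PCDHB5 are neighbours with overlapping flanks, and the beta genes are near copies of each other. The bodies of PCDHB4, PCDHB6 and PCDHB16 held no peak base of either list, and with the gene body alone 3 genes were past 20 points toward H1.5.

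The 20 long neuronal adhesion and synapse genes had none past 20 points, beside 3.6% and 1.98% of all protein-coding genes each way. Of the 20, 18 were above 0, with a median difference of 5.74 points and median coverages of 27.5% for H1.2 and 20.1% for H1.5. Above 0 were also 11021 of all 20098 genes. Among genes of 50 kb or more, by the gene body alone, 64.8% were above 0, with a median of 2.31 points. The largest were PCDH9 (32.4% and 18.1%), LRP1B, a lipoprotein receptor relative (31.3% and 19.7%), and CDH18, a cadherin gene (32.7% and 21.3%). The 2 below 0 were CDH13 (15.4% and 20.3%) and CNTN6 (25.0% and 26.9%). Long genes average over many peaks, so a few points here cover more bases than in a short gene. In xChIP the median difference of these 20 genes was -3.01 points.

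Over all 20098 genes the median coverage was 8.64% for H1.2 and 6.81% for H1.5. Of these genes 11021 were above 0 and 6998 below, with 3.6% past 20 points toward H1.2 and 1.98% toward H1.5. The lists of genes that myeloid cells use had H1.2 medians of 3.87% to 7.55%, and their H1.5 medians were 4.37% to 6.14%. Of 15 azurophil granule protein genes, which encode the enzymes and peptides of the primary granules, 7 were above 0 and 7 below, with a median of 0, and median coverages were 7.55% for H1.2 and 4.37% for H1.5. The 3 past 20 points were all alpha-defensins: DEFA4 (32.4% and 0%) and DEFA3 (23.7% and 0%) toward H1.2, and DEFA1 (6.48% and 62.5%) toward H1.5. The DEFA4 value came from its flanks, since its body held no peak base, and DEFA1 and DEFA3 are near-identical copies whose peaks are uncertain. Of 20 myeloid transcription factor genes, 13 were above 0 and 5 below, with medians of 5.63% for H1.2 and 6.14% for H1.5. MYC, which is amplified in HL-60 lines, had 47.2% for H1.2 and 0% for H1.5, all in the flanks, with 0% of its body in either list. The next was KLF4, with 17.7% and 5.98%, and the lowest was IRF8, with 0% and 11.1%. The 17 leukocyte surface and adhesion genes had 9 above 0 and 8 below and medians of 3.87% and 5.89%, with the highest value at ICAM3 (13.3% and 0%), an adhesion ligand.

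Genes of chromatin architecture mostly showed small differences, as did most protein-coding genes. Of all 20098, 2066 had no peak base in either list, 11021 were above 0 and 6998 below. Of 10 linker histone H1 genes, 4 had no peak base in either list, among them H1-2 and H1-5, which encode the isotypes compared here, and H1-1 had the largest value, with 30.3% for H1.2 and 14.3% for H1.5. The 14 cohesin and CTCF genes, which form chromatin loops, had 11 above 0, up to SMC3 with 14.9% and 0%. Of 14 nuclear envelope genes, 5 were above 0 and 7 below, with LEMD3 (13.9% and 32.6%), LEMD2 (0% and 15.5%) and LBR (0% and 12.1%) lowest and SYNE2 (21.9% and 11.2%) highest. The 39 HOX genes of body patterning had a median of 0 points and 1 member past 20, HOXC9, with 21.6% for H1.2 and 0% for H1.5 and with 69.1% and 0% in its body. None of the genes in the H1, cohesin, nuclear envelope and leukocyte lists was past 20 points with 10 kb on each side. Over all protein-coding genes 3.6% were past 20 points toward H1.2 and 1.98% toward H1.5. At those shares, lists this small would hold few such genes or none. With the gene body alone CD33 passed toward H1.5 (28.7% and 50.1%).

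**Figure D4:**
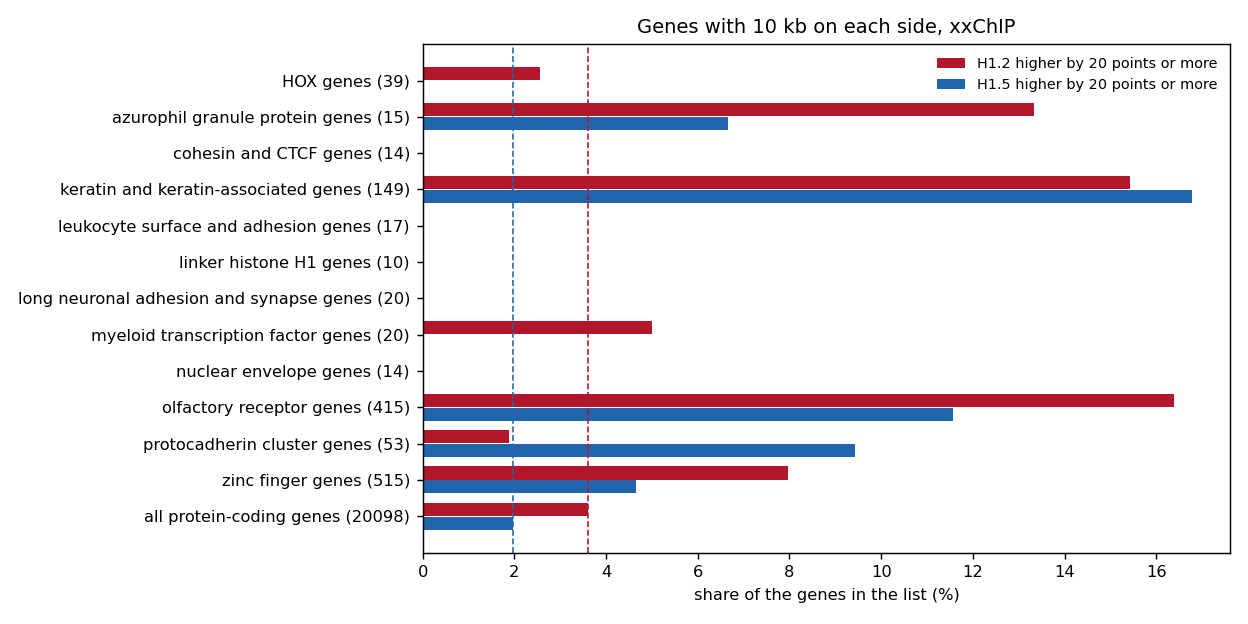
Share of the genes of each list (x axis, %) with H1.2 higher (red) or H1.5 higher (blue) by 20 points or more in xxChIP, taken over the gene with 10 kb on each side. List sizes are in parentheses and dashed lines mark all protein-coding genes (3.6% and 1.98%). Olfactory receptor and keratin genes exceed both lines in both colors, and their median coverage by both lists is also above that of all genes.

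The difference fell with GC content. In 5 equal groups of windows from the lowest to the highest GC content, the median difference was 4.54, 2.88, 2.67, 2.11 and 0.31 points. The share of H1.2-higher windows went from 13.0% in the lowest group to 0.81% in the highest, while H1.5-higher windows were 2.37%, 1.69%, 1.25%, 1.21% and 1.30%. Coverage by both lists fell as well, from medians of 27.0% for H1.2 and 22.1% for H1.5 in the lowest group to 8.27% and 7.57% in the highest. The ratio of mean H1.2 to mean H1.5 coverage went from 1.23 to 1.02. The lowest group minus the highest was 4.23 points (SD over 23 chromosomes 1.53) and 1.57 points with the lists scaled to one mean. The correlation of the difference with GC content over the 28422 windows was -0.17, a weak one over windows that share peaks.

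By gene density the median differences were closer together. Windows without protein-coding gene bases had a median difference of 2.57 points, and 5 equal groups of the rest by the share in coding genes had 2.11, 1.82, 1.78, 2.18 and 2.92 points. H1.2-higher windows made up 9.10% of the gene-free windows and 4.21%, 3.23%, 2.51%, 4.83% and 6.83% of the 5 groups, so that the share fell and rose again. Coverage fell and rose as well. Its H1.2 medians were 23.5% in gene-free windows and 15.7%, 12.4%, 10.5%, 14.8% and 16.7% in the 5 groups. The H1.5 medians were 20.9%, then 13.4%, 10.2%, 8.37%, 12.6% and 13.8%. The part of coverage in the shares of called windows was not tested. H1.5-higher windows made up 2.46% of the gene-free windows and 1.52%, 0.80%, 0.93%, 1.31% and 0.96% of the groups. Gene-free windows minus the highest group was -0.35 points, and -1.36 points with scaled lists. Taken chromosome by chromosome, the unscaled contrast had an SD of 1.62 points. That SD describes single chromosomes and is not an error of either value.

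**Figure D5:**
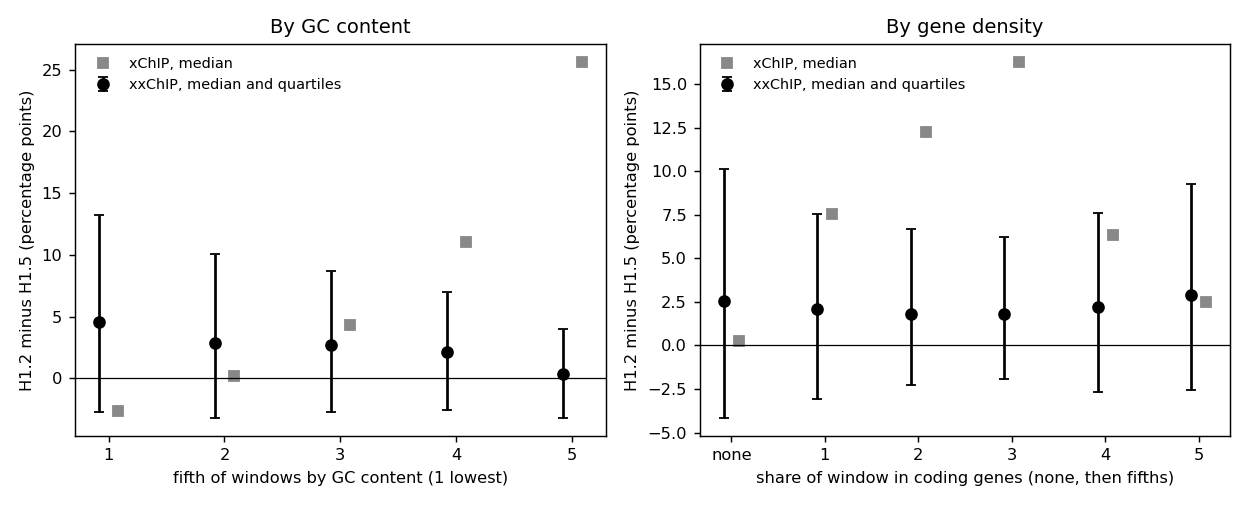
H1.2 minus H1.5 (y axis, percentage points) by group of windows in GC content (left) and by share of the window in protein-coding genes (right), as xxChIP medians with quartiles (black) and xChIP medians (gray). The xxChIP median falls from 4.54 to 0.31 points with GC content while that of xChIP rises from -2.68 to 25.6 points, and by gene density xxChIP medians stay between 1.78 and 2.92 points.

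By chromosome, the mean difference was above 0 on 22 of 23. It was highest on chromosome 4, at 6.06 points, where 11.5% of windows were H1.2-higher and 1.23% H1.5-higher, followed by chromosome 21 at 4.56 and chromosome 2 at 4.49 points. It was lowest on chromosome 22, at -0.22 points, with 13 H1.2-higher and 16 H1.5-higher windows of 350, and next on chromosome 19, at 0.65 points. On chromosome 20, which holds the PCK1 and cystatin loci, 29 windows went each way, or 4.86% of its windows. Chromosome 18 was the most one-sided, with 58 H1.2-higher and 3 H1.5-higher windows. The 3 highest chromosomes have mean GC contents of 38.2%, 40.9% and 40.2%, and chromosomes 22 and 19 have 48.0% and 48.4%. The order did not follow GC content throughout. Chromosome 8, also at 40.2%, had a mean difference of 1.89 points, and chromosome 13, at 38.5%, had 3.04 points. Chromosome 18, at 39.8%, had 4.35 points.

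The isotype difference in xxChIP was not that of xChIP. In the same windows xChIP H1.2 minus H1.5 averaged 10.1 points ± 19.2 (SD), with 6172 windows (21.7%) at 20 points or more and 219 (0.771%) at -20 or less. Of the 1691 windows H1.2-higher in xxChIP, 50 (2.96%) were at 20 points or more in xChIP and 21 (1.24%) at -20 or less. Of the 445 H1.5-higher windows, 23 (5.17%) and 10 (2.25%) were. The first share lay below the 21.7% of all windows in both sets. The second share, 1.24% and 2.25%, lay above the 0.771% of all windows in both sets. The correlation of the differences over 28422 windows was -0.07. In H1.2-higher windows the median xChIP coverage was 10.7% for H1.2 and 11.5% for H1.5, and in H1.5-higher windows 14.6% and 13.8%.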

How the data were processed

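The 12 immunoprecipitated samples of undifferentiated HL-60/S4 cells were grouped by protocol and antibody as the labels name them. Per the study's methods, paired-end reads were mapped by Bowtie2 on the hg19 build (at most 2 mismatches, uniquely mappable reads only), and the authors called peaks per replicate with MUSIC at default settings and deposited 1 list of merged positions per combination. The deposited lists hold no score and no read count, so depth is unknown, and merging can lengthen peaks.

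Peaks were intersected with known bases of the GRCh37 assembly, whose sequence is that of hg19, in 100-kb windows with at least 50% known sequence, in GENCODE v44 genes lifted to GRCh37, and in stretches of 250 bases upstream of genes. Thresholds were 20 points for windows and for genes with 10 kb on each side, and 30 points for bodies of genes of 20 kb or more. The genes and loci named are the 10 leading windows, 12 leading genes and 5 widest runs each way, with the genes inside them, and members of the lists of up to 20 genes. Genes named from the larger lists were chosen after their values were seen. The members and lists were chosen with earlier results of these data known. No test was run, since each group is 1 merged list. The window step was tested on simulated data, where it recovered 200 of 200 planted differences of 30 points in 600 windows. Alternatives changed window size and position, the known-sequence minimum, the scaling, the peak lengths, the threshold, the measure and the gene limits. One was added after seeing the data, leaving out windows near large gaps. Input samples and the reads were not analysed here, and values of a few items are not reported here. Python 3.11.15, numpy 2.4.6, pandas 2.3.3 and matplotlib 3.10.9 were used.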

Additional observations from a re-analysis of the deposited data

Results flagged for a closer look

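In 2 summaries the isotype difference had opposite signs under the 2 protocols, and 2 further items count windows selected for opposite signs. The differences were not tested, since each protocol and antibody gave 1 merged list. In the group of windows with the lowest GC content, 1 of 5 equal groups, the median of H1.2 minus H1.5 was 4.54 points in xxChIP and -2.68 points in xChIP. On chromosome 22 the mean difference was -0.22 points in xxChIP and 14.8 points in xChIP. There were 21 windows at 20 points or more in xxChIP and at -20 points or less in xChIP, beside 50 at 20 points or more in both. The 21 were 1.24% of the H1.2-higher windows, beside 0.771% of all windows at -20 points or less in xChIP. There were 23 windows at -20 points or less in xxChIP and at 20 points or more in xChIP, or 5.17% of the H1.5-higher windows, beside 21.7% of all windows at 20 points or more in xChIP.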

How the results depend on the processing

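No paired analysis was possible because the merged lists hold no replicate values, and for the same reason no replicate could be left out. The counts of H1.2-higher and H1.5-higher windows were 5540 (9.77%) and 2422 (4.27%) with windows of 50 kb, 412 (2.89%) and 48 (0.337%) with 200 kb, 925 and 927 with scaled lists, 811 and 693 without peaks of 20 kb or more, and 496 and 80 at 30 points. By the share of bases in exactly 1 list, at 50 points, they were 2995 and 1054. The mean difference was 1.23 points without peaks of 20 kb or more and 0 by construction with scaled lists. The GC contrast was 1.57 points with scaled lists, and the gene-density contrast turned to 0.036 points with 200-kb windows. Genes at 30 points numbered 35 and 8 among genes of 50 kb or more, 68 and 24 with 10 kb on each side, and 85 and 100 with scaled lists. Moving the windows by 50 kb, requiring 90% known sequence, leaving out peaks under 2 kb and, chosen after seeing the data, leaving out windows near gaps kept both window counts within 1.5 times.

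All 20 leading windows and all 24 leading genes stayed past their thresholds with scaled lists and without peaks under 2 kb. Without peaks of 20 kb or more, 12 of the 20 windows and 8 of the 24 genes changed sign, by the construction of that alternative, which removes the long peak. A further 6 windows and 3 genes lost their call, among them chr12:38300001-38400000 at 0 points and chr4:122300001-122400000 at 0.43, and 2 windows and 13 genes stayed past the threshold. The windows that changed sign went to -23.9 and -23.4 points at chr21:11100001-11200000 and chr21:10000001-10100000, -26.1 at chr3:90400001-90500000, -16.0 at chr4:65000001-65100000, -16.3 at chr2:82300001-82400000, -22.3 at chr22:16000001-16100000, -4.59 at chr10:66000001-66100000, 4.37 at chr11:51200001-51300000, 14.2 at chr7:64900001-65000000, 35.5 at chr16:35100001-35200000, 0.015 at chr6:98400001-98500000 and 2.23 at chr13:83600001-83700000. The genes went to -3.73 (ANKRD20A1), -19.4 (ZNF93), -11.6 (ZNF736), -30.2 (PSG5), 22.8 (CEACAM5), 15.9 (ZNF829), 3.77 (PODN) and 12.7 points (ENSG00000267881). With windows moved by 50 kb, 6 of 19 leading windows fell below 20 points, all of them H1.5-higher and at -1.84 to -19.5 points, and none changed sign.

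Limits are that depth is unknown, that coverage takes no account of peak height, and that near-identical copies and sequence beside gaps rest on uniquely mappable reads only.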
